A study of Glycine max with 8 samples.

Results

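The 10 soybean (Glycine max) genes described here are the flowering repressor E1, its relatives E1La and E1Lb, and the FLOWERING LOCUS T (FT) genes FT2a, FT2b, FT5a, FT3a, FT3b, FT5b and FT1a. They were chosen by gene ID, and 6 of the 10 are among the 31785 genes of the deposited table. The listed genes are FT2a (Glyma.16G150700.Wm82.a4.v1), FT2b (Glyma.16G151000.Wm82.a4.v1), FT5a (Glyma.16G044100.Wm82.a4.v1), FT3a (Glyma.16G044200.Wm82.a4.v1), FT3b (Glyma.19G108100.Wm82.a4.v1) and FT5b (Glyma.19G108200.Wm82.a4.v1). E1 (Glyma.06G207800.Wm82.a4.v1), E1La (Glyma.04G156400.Wm82.a4.v1), E1Lb (Glyma.04G143300.Wm82.a4.v1) and FT1a (Glyma.18G298900.Wm82.a4.v1) are not listed in the table used here, so their levels were not analysed.

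RNA was sequenced from mature leaves of 2 lines, WT (wild type) and OX5, with 4 libraries per line. All plants had sufficient phosphorus and were sampled at R6, the full-seed stage, when flowering is long past. The labels do not give the gene altered in OX5, how the line was made, the day length or the hour of harvest. Nothing in them tells whether replicates were different plants, so the p-values below describe the spread among libraries, which may be technical. Each library held between 17536942 and 19156866 reads over the listed genes, as recovered from the deposited values. The leaf label was not checked against marker genes, because the files pair no gene IDs with names.

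FT proteins are the florigens of flowering plants: small proteins of the phosphatidylethanolamine-binding family that are made in the leaf, move through the phloem and act with bZIP partners at the shoot apex to start flowering. In soybean, a short-day plant, E1 is a legume-specific repressor related to B3-domain proteins. It is expressed in long days and holds down FT2a and FT5a, the best known promoters of soybean flowering, while phytochrome A photoreceptors and the circadian clock act upstream of it. FT1a is known as an FT copy with the opposite role, since it delays flowering.

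The FT genes lie in tandem groups. In the RefSeq gene table of the assembly Glycine_max_v4.0, all 10 genes are found by symbol, each on the chromosome that its ID gives. FT5a and FT3a are next to each other on chromosome 16 with 0 protein-coding genes between them, and FT3b and FT5b on chromosome 19 also with 0. FT2a and FT2b lie elsewhere on chromosome 16 with 1 protein-coding gene between them, and FT1a is on chromosome 18. E1 is on chromosome 6, and E1La and E1Lb are both on chromosome 4. How reads that match more than 1 gene copy were counted is not given in the sources used here, so the split of the signal between similar copies such as FT3a and FT3b is uncertain.

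In these leaves, FT transcripts were dominated by FT3a and FT3b, and the florigen genes FT2a and FT5a stood far lower. Levels are given in FPKM (fragments counted per unit of gene length and of library depth), a scale on which genes of different length can be compared. FT3a averaged 159.7 ± 38.9 FPKM in WT and 109 ± 24.3 FPKM in OX5, and FT3b averaged 122 ± 45.8 and 49.4 ± 11.9 FPKM (SD, n = 4 each). FT2a averaged 11.1 ± 1.91 and 25.6 ± 16.6 FPKM, FT5b 8.74 ± 1.05 and 12.9 ± 1.92 FPKM, and FT5a 6.90 ± 1.33 and 6.67 ± 4.01 FPKM (SD, n = 4 each). FT2b was at 0.0248 ± 0.0496 FPKM in WT and 4.32 ± 4.91 FPKM in OX5 (SD, n = 4 each).

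The order of the levels was largely the same in every library. FT3a was above FT3b in 8 of 8 libraries, FT5b above FT5a in 8 of 8, and FT5a above FT2b in 8 of 8. FT3b was above FT2a in 7 of 8 and FT2a above FT5b in 7 of 8, the exceptions being OX5 libraries in each case. In WT the ranges of FT3a and FT3b overlapped, as did those of FT5b and FT5a, and those of FT2a and FT5b, where the lowest FT2a level was 9.76 and the highest FT5b level 9.80 FPKM. In level, FT3a ranked between 263 and 1222 of all 31785 listed genes, depending on the library. FT2a ranked between 2820 and 13103, and FT5a between 11885 and 23001.

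**Figure D1:**
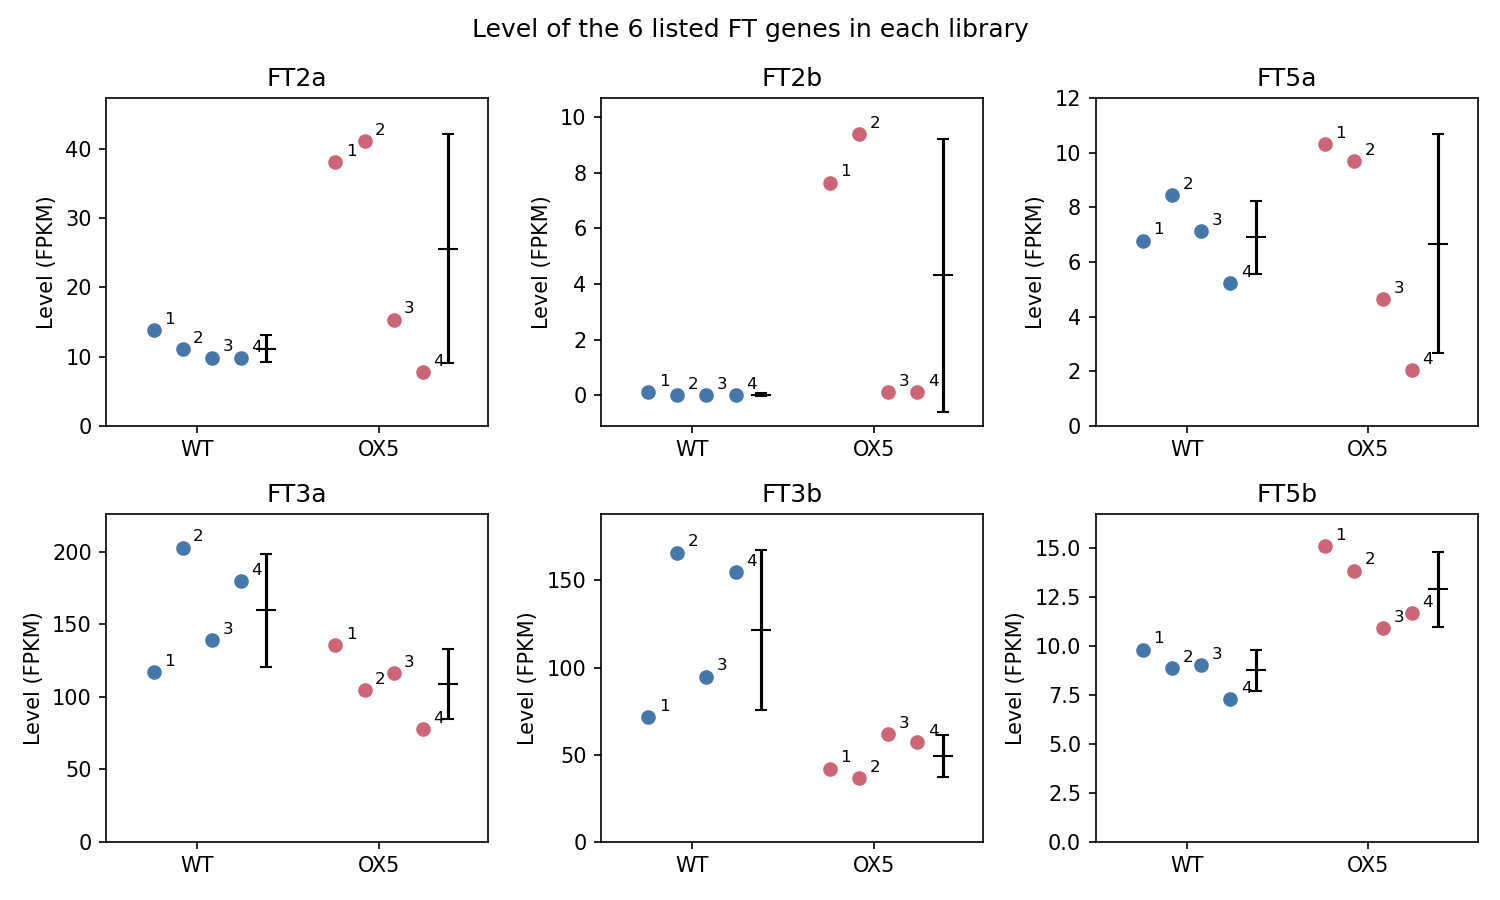
Level in FPKM (linear axes, a separate scale for each gene) of the 6 listed FT genes in 4 WT libraries (blue) and 4 OX5 libraries (red), with the replicate number beside each point; the bars are the mean and SD of a line. OX5 replicates 1 and 2 are the 2 highest libraries for FT2a, FT2b, FT5a and FT5b and the 2 lowest for FT3b.

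The comparison of OX5 with WT asks whether the 2 lines differ in these transcripts. At the threshold, an adjusted p under 0.05, 0 of the 6 listed genes changed by limma on log2(FPKM + 1). By limma-voom on recovered reads 0 changed, where that fit gave 239 rises and 195 falls over all 30424 genes tested. Leaving out OX5 replicates 1 and 2 also gave 0 of the 6, where that fit called 0.795% of all genes tested. Leaving out OX5 replicates 3 and 4 gave 4, namely FT2a, FT2b, FT3b and FT5b, where that fit called 18.1% of all genes tested. FT2b passed the filter on low values through OX5 replicates 1 and 2 alone, so its call in that fit gives no separate support. Of the 30424 genes tested on all 8 libraries, 2.40% passed, of which 1.38% of the tested genes rose and 1.01% fell. At an unadjusted p under 0.05, limma gave 3 of the 6, namely FT3a, FT3b and FT5b, where 21.7% of all genes tested were under it. Log2 fold changes were above 0 for 3 of the 6 and below 0 for the other 3, with a median of 0.15, against a median of 0.04 over all genes tested. With 6 genes, these shares are a description of the members.

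FT3b had the lowest adjusted p of the 6. In the order of the replicates 1 to 4, WT had levels of 71.4, 166, 94.9 and 155 FPKM and OX5 had 42.1, 36.7, 61.7 and 57.1 FPKM. All 4 OX5 libraries lay below all 4 WT libraries, an arrangement that 5.35% of all genes tested shared. The WT mean was 2.46 times the OX5 mean, with a log2 fold change of −1.23 (SE 0.29, limma adjusted p = 0.0603). The call depended on the libraries used, as the limma adjusted p was 0.044 without WT replicate 1. Without OX5 replicates 3 and 4 it was 0.0269, at a log2 fold change of −1.52, and without OX5 replicates 1 and 2 it was 0.196, at −0.94. These values rest on 373 to 1665 reads per library.

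FT5b, the tandem neighbour of FT3b, also missed the threshold, and its OX5 values were higher than those of WT where those of FT3b were lower. The WT replicates 1 to 4 stood at 9.80, 8.87, 9.01 and 7.30 FPKM and the OX5 replicates at 15.1, 13.8, 10.9 and 11.7 FPKM. All 4 OX5 libraries lay above all 4 WT libraries, as in 8.87% of all genes tested. The OX5 mean was 1.47 times the WT mean, with a log2 fold change of 0.51 (SE 0.14, limma adjusted p = 0.086). Without OX5 replicates 3 and 4 the limma adjusted p was 0.0222, at a log2 fold change of 0.67, and without OX5 replicates 1 and 2 it was 0.259, at 0.34. The counts behind these levels ran from 95 to 186 reads per library.

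FT3a, the copy of FT3b on chromosome 16, measured 117, 203, 139 and 179.9 FPKM across the WT replicates 1 to 4 and 136, 105, 116 and 77.8 FPKM across those of OX5. The lines overlapped, since OX5 replicate 1 was above WT replicate 1, while the other 3 OX5 libraries were below every WT library. The fitted difference was −0.55 on the log2 scale (SE 0.22, limma adjusted p = 0.20). In all 20 alternative fits it stayed below 0 and missed the threshold, with adjusted p from 0.121 to 0.368. In WT, FT3a and FT3b were both higher in replicates 2 and 4 than in replicates 1 and 3. That spread was wide for FT3b, since 7.69% of all genes tested had a larger SD of log2(FPKM + 1) between WT libraries, and 22.0% exceeded that of FT3a.

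FT2a, a promoter of flowering that E1 represses, separated the OX5 libraries from each other. The WT replicates 1 to 4 had 13.9, 11.1, 9.86 and 9.76 FPKM. In OX5 it had 38.2 and 41.2 FPKM in replicates 1 and 2, but 15.4 and 7.80 FPKM in replicates 3 and 4. OX5 replicate 3 was thus slightly above the highest WT library, and OX5 replicate 4 was below the lowest. The OX5 mean was 2.30 times the WT mean, but the difference did not pass the test, with a log2 fold change of 0.88 (SE 0.46, limma adjusted p = 0.30). Without OX5 replicates 1 and 2 the log2 fold change was −0.0049 (limma adjusted p = 0.99), and without OX5 replicates 3 and 4 it was 1.76 (limma adjusted p = 0.0027). Reads per library ran from 133 to 767.

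FT2b, which lies near FT2a, was read in appreciable numbers in OX5 replicates 1 and 2, with 74 and 96 reads. Each of OX5 replicates 3 and 4 held 1 read, as did WT replicate 1, and WT replicates 2, 3 and 4 held 0. As levels, this was 7.65 and 9.40 FPKM in OX5 replicates 1 and 2, where the exact 95% Poisson interval of the second was 7.62 to 11.5 FPKM. The level was 0.107 FPKM in OX5 replicates 3 and 4 and 0.0992 FPKM in WT replicate 1, where the interval ran from 0.0025 to 0.552 FPKM. In the WT libraries at 0, the limit that a count of 0 allows, set at 3 reads, corresponded to 0.294 to 0.30 FPKM, while the upper end of the exact 95% Poisson interval was 0.361 to 0.368 FPKM. These intervals and limits cover counting error only. The 4 OX5 values are all above the 4 WT values in name only, because 3 of the 8 differ by the scaling of a single read.

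Summed over the lines, FT2b had 172 reads in OX5 and 1 in WT, a ratio of read shares of 180.0 with an exact 95% interval of 31.9 to 7152 for counting error alone. Because OX5 replicates 1 and 2 supplied nearly all of these reads, the spread between OX5 libraries was large. Of all genes tested, 0.246% had a larger SD of log2(FPKM + 1) between OX5 libraries than FT2b. The fitted difference was 1.66 on the log2(FPKM + 1) scale (SE 0.74, limma adjusted p = 0.23). With a pseudocount of 0.1 it was 3.49 (limma adjusted p = 0.177), and by limma-voom on recovered reads 4.23 (adjusted p = 0.279). On the log2(FPKM + 1) scale it was 0.11 without OX5 replicates 1 and 2 (limma adjusted p = 0.65) and 3.21 without OX5 replicates 3 and 4 (limma adjusted p = 0.00034). FT2b passed the filter on low values through OX5 replicates 1 and 2 alone, so the last of these fits keeps the libraries that brought the gene into the test and gives no separate support.

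FT5a, the other well-known florigen gene, measured 6.78, 8.45, 7.14 and 5.21 FPKM across the WT replicates 1 to 4. In OX5 it had 10.3 and 9.70 FPKM in replicates 1 and 2, above every WT library, and 4.63 and 2.04 FPKM in replicates 3 and 4, below every WT library. The mean levels of the lines therefore differed little, with a log2 fold change of −0.21 (SE 0.39, limma adjusted p = 0.79). Its direction turned with the libraries used, from −0.92 without OX5 replicates 1 and 2 (limma adjusted p = 0.149) to 0.50 without OX5 replicates 3 and 4 (limma adjusted p = 0.10). It was 0.17 without OX5 replicate 4 and 0.25 with library quality weights, which let libraries that vary more count less. FT5a had 44 to 231 reads per library.

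**Figure D2:**
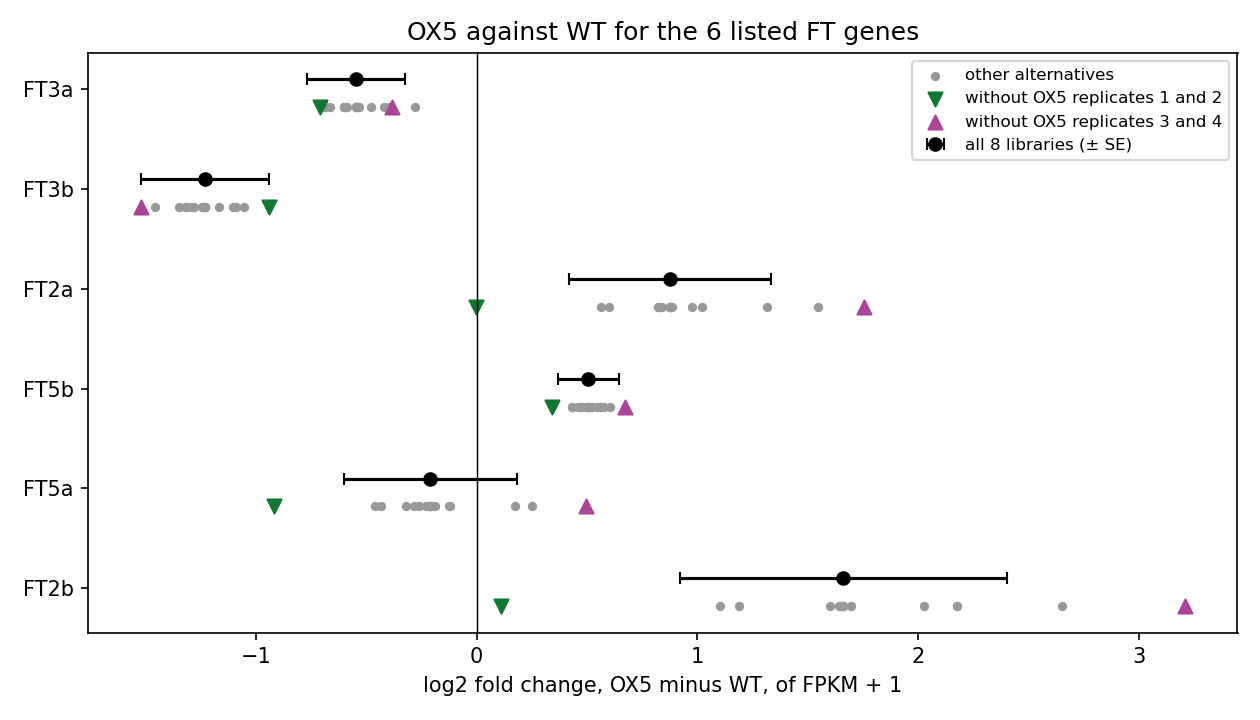
Log2 fold change of OX5 against WT on the log2(FPKM + 1) scale for the 6 listed FT genes, ordered by mean level: black points are the fit on all 8 libraries with its SE, triangles are fits that leave out a pair of OX5 replicates, and grey points are the other alternative fits on the same scale. For FT2a, FT2b and FT5a the 2 triangles lie far apart, at −0.0049 and 1.76, 0.11 and 3.21, and −0.92 and 0.50.

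OX5 replicates 1 and 2 stood at an end of the range for 5 of the 6 genes. OX5 replicates 1 and 2 were the 2 highest of the 8 libraries for FT2a, FT2b, FT5a and FT5b, and the 2 lowest for FT3b. FT2b passed the filter on low values through these 2 libraries alone, so its place in this count and its OX5 spread give no separate support. This pattern was chosen after the values were seen, and it is common in these libraries: 25.4% of all genes tested had OX5 replicates 1 and 2 as their 2 highest libraries and 9.35% as their 2 lowest. The within-OX5 spread was large for 3 of the genes. The highest OX5 level was 5.28 times the lowest for FT2a, 5.07 times for FT5a and 87.9 times for FT2b. It was 1.75 times for FT3a, 1.68 times for FT3b and 1.38 times for FT5b. A larger SD of log2(FPKM + 1) between OX5 libraries than that of FT2a was seen in 2.11% of all genes tested, and than that of FT5a in 3.98%. The same share was 33.8% for FT3b, 35.8% for FT3a and 65.5% for FT5b, so their OX5 spread was not unusual. In bulk leaf RNA, fewer expressing cells and less RNA per cell cannot be told apart.

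The summed level of the 6 listed FT genes was 308 ± 82.9 FPKM in WT and 208 ± 38.3 FPKM in OX5 (SD, n = 4 each), with ranges of 219 to 397 and 156 to 249 FPKM that overlap. FT3a and FT3b together made up 86.0% to 93.8% of this sum in the WT libraries. In OX5 they made up 71.4% and 65.6% in replicates 1 and 2, and 85.2% and 86.2% in replicates 3 and 4. FT3a alone stayed between 48.6% and 55.6% in all 8 libraries, while FT3b ranged from 16.9% to 43.3%. The 4 other genes summed to 22.3 to 30.5 FPKM in WT, to 71.2 and 74.1 FPKM in OX5 replicates 1 and 2, and to 31.0 and 21.6 FPKM in OX5 replicates 3 and 4.

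**Figure D3:**
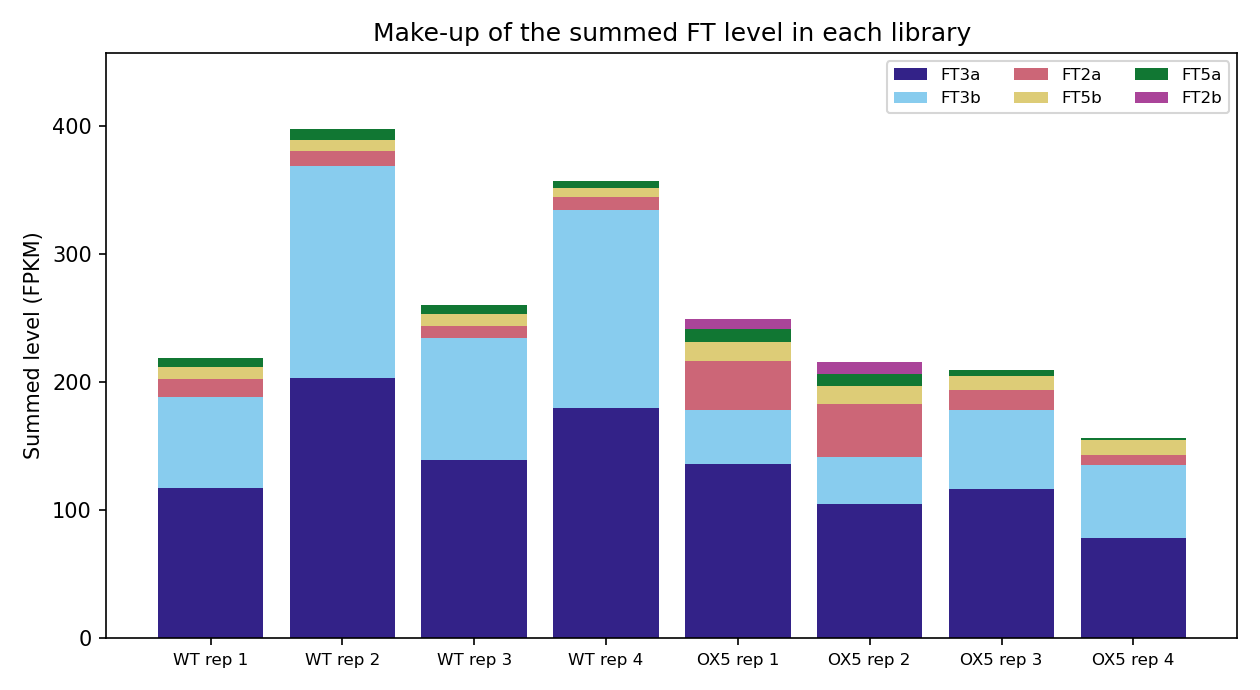
Summed level in FPKM of the 6 listed FT genes in each library, with the part of each gene stacked from FT3a at the bottom. The parts of FT2a, FT5b, FT5a and FT2b together reach 71.2 and 74.1 FPKM in OX5 replicates 1 and 2 and lie between 21.6 and 31.0 FPKM in the other 6 libraries.

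Ratios between copies within a library do not depend on how libraries were scaled. The level of FT5b was 0.0472 to 0.137 of that of its neighbour FT3b in WT and 0.177 to 0.376 in OX5. The lines cannot overlap in this ratio, given that neither gene's own values overlapped and the 2 lay in opposite directions. FT3b stood at 0.611, 0.819, 0.682 and 0.859 of FT3a in WT replicates 1 to 4, and at 0.31, 0.351, 0.531 and 0.734 in OX5 replicates 1 to 4. The lines overlapped in this ratio because OX5 replicate 4 lay within the WT range. FT5a was at 0.692 to 0.953 of its copy FT5b in WT, and at 0.685, 0.702, 0.424 and 0.175 in OX5 replicates 1 to 4. OX5 replicates 1 and 2 were thus near the WT ratio, although both genes were higher there than in any WT library. FT3a was 17.2 to 34.5 times its neighbour FT5a in WT and 10.8 to 38.2 times in OX5. FT2a was 4.99 and 4.38 times FT2b in OX5 replicates 1 and 2, and in the other libraries FT2b had at most 1 read.

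**Figure D4:**
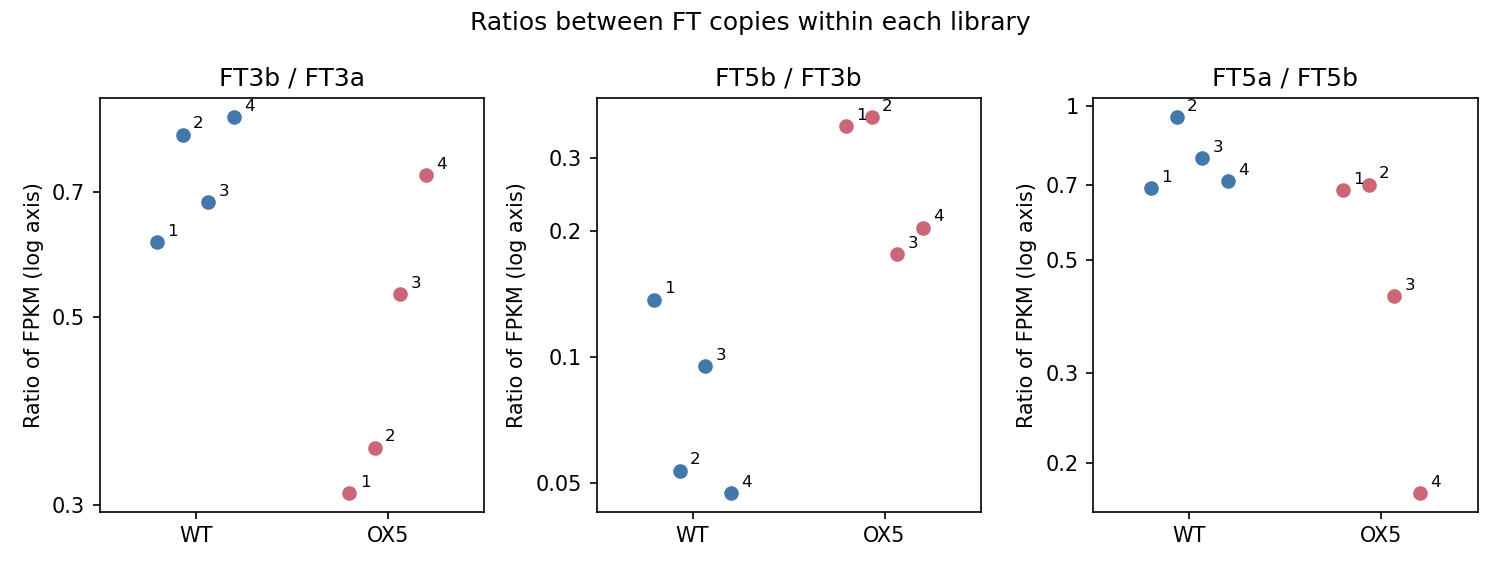
Ratio of FPKM between FT copies within each library (log axes, a separate scale for each panel), with the replicate number beside each point. The ratio of FT5b to FT3b is 0.0472 to 0.137 in WT (blue) and 0.177 to 0.376 in OX5 (red), which follows from the levels of the 2 genes, while the WT and OX5 points of the other 2 ratios overlap.

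The likeness of 2 profiles was measured as the root-mean-square difference between their log2(FPKM + 1) values over the 8 libraries, each scaled to a mean of 0 and an SD of 1, so that 0 means the same shape. FT2a and FT2b were the closest pair among the members, at 0.296. FT2b and FT5b followed at 0.551, FT2a and FT5b at 0.618, and the copies FT3a and FT3b at 0.644. FT2b had at most 1 read in any library but OX5 replicates 1 and 2, so its shape is set by those 2 libraries. FT5a and FT5b were at 1.17 and the neighbours FT3b and FT5b at 1.84, the largest difference of any pair of members. Of the other genes tested, 257 were nearer to FT2a than FT2b was, and FT3b ranked 1692 of 30423 in nearness to FT3a. The 2 genes nearest to FT3a, the most abundant member, were Glyma.13G329100.Wm82.a4.v1, at 0.177, and Glyma.13G076800.Wm82.a4.v1, at 0.212, both on chromosome 13. Neither passed the test between the lines (limma adjusted p = 0.317 and 0.233). All of these profiles share the same 8 libraries.

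Other genes of the photoperiod pathway were taken as 26 loci by their published soybean gene numbers, a pairing that neither the files nor the RefSeq table holds, so no locus of the list is named. Of the 26, 17 were listed and tested, and 0 rose and 2 fell by limma at an adjusted p under 0.05. Of all genes tested, 1.38% rose and 1.01% fell. The median log2 fold change of the 17 was −0.15, against 0.04 over all genes tested. Both of the falls were among the 11 circadian clock loci, whose log2 fold changes ran from −1.56 to 1.28 with a lowest limma adjusted p of 0.023. Without OX5 replicates 1 and 2, 0 of the 17 fell, where that fit called 0.795% of all genes tested. Without OX5 replicates 3 and 4, 0 rose and 2 fell, where that fit called 18.1%. With library quality weights 4 rose and 6 fell, against 6107 and 3397 of all genes tested. With 1 library left out the number of falls was 0 to 4, where those fits gave 23 to 334 falls over all genes tested. The 4 falls came without WT replicate 4, where 1 locus also rose. That fit gave 169 rises and 165 falls over all 30424 genes tested. The lines did not overlap at 6 of these 11 loci, where 14.2% of all genes tested did not overlap. The 3 further FT genes of the list were not listed in the table. FT and clock transcripts are known to change over the day, and the part of the clock loci in the differences between FT levels was not tested.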

How the data were processed

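RNA was sequenced from soybean leaves of WT and OX5, with 4 libraries per line. The authors deposited 1 table of FPKM per gene and library. Per the submitters' processing notes, HISAT2 2.1.0, Bowtie2 2.2.3, HTSeq 0.6.0, TopHat2 and CASAVA were used, without their roles. The gene IDs carry the annotation suffix Wm82.a4.v1; the build used for alignment and the strandedness: not given in the sources used here. A single empty row was left out.

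OX5 was compared with WT by limma 3.58.1 (R 4.3.3) with a variance trend on log2(FPKM + 1), a scale that understates changes of low genes. The fit covered 30424 genes (mean FPKM of 0.5 or more over the 8 libraries), with Benjamini-Hochberg adjustment over all of them. All 6 listed members passed this filter, FT2b through OX5 replicates 1 and 2 alone. The test and the recovery of reads were tested on simulated data.

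Reads were recovered from the FPKM steps with Python 3.11.15. They were whole within 0.0251 reads for 100% of genes, and each listed gene had at least 22 over the 8 libraries. No 2 libraries of a line agreed within sampling noise (lowest mean chi-square 10.9 per gene). Members, lists and the 20 alternative fits were chosen with earlier results of these data known, and limma-voom was added last. All members are named, with the 2 genes nearest in profile to the most abundant listed FT gene; the same rule had no listed E1 gene to apply to.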

Additional observations from a re-analysis of the deposited data

Results flagged for a closer look

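Of 12 groups of 4 FPKM values examined for a lone extreme value (6 genes in 2 lines), 1 stood out, where chance gives about 1 in 20. It was FT2b in WT replicate 1, at 0.0992 FPKM, while the other 3 WT libraries were at 0. The value rests on 1 read, and with the other 3 values tied at 0 any read at all would stand out, so the chance rate does not apply to this group.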

How the results depend on the processing

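Of the 20 alternative fits, limma-voom on recovered reads was added after seeing the data. It took the place of the planned edgeR fits, which were not run. Against 421 rises and 308 falls over all genes, library quality weights gave 6107 and 3397, limma-voom 239 and 195, the fit without OX5 replicates 1 and 2 126 and 116, and the fit without OX5 replicates 3 and 4 3756 and 1747. Rescaling each library to a sum of 1000000 gave 246 rises. With the replicate number as a block there were 33 and 23, with 0 of the 6 FT genes called. Across genes, same-numbered libraries deviated from their line means with r of −0.061 to 0.128, and differently numbered ones with −0.169 to 0.112, so the numbers were not taken as pairs. Leaving out 1 library gave 35 to 427 rises and 23 to 334 falls.

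Library quality weights and the fit without OX5 replicates 3 and 4 each called FT2a, FT2b, FT3b and FT5b. Of the 30424 genes tested, the first gave 6107 rises and 3397 falls, and the second called 18.1%. Both fits keep OX5 replicates 1 and 2, through which alone FT2b passed the filter, so its calls give no separate support. The log2 fold changes were 1.55 and 1.76 for FT2a, 2.65 and 3.21 for FT2b, −1.24 and −1.52 for FT3b, and 0.61 and 0.67 for FT5b. With 1 library left out, FT3b ran from −1.46 (called, without WT replicate 1) to −1.06. Leaving out 1 library gave 0.56 to 1.32 for FT2a, 1.1 to 2.18 for FT2b, 0.43 to 0.58 for FT5b and −0.69 to −0.40 for FT3a. FT2a turned to −0.0049 without OX5 replicates 1 and 2. FT5a turned to 0.25 with quality weights and to 0.50 without OX5 replicates 3 and 4, and ran from −0.46 to 0.17 with 1 library left out. The cause was not tested. The pseudocount of 0.1 gave 3.49 and limma-voom 4.23 for FT2b, which missed the threshold in both. FT2b had 0 or 1 read in 6 libraries, so its level in those libraries is not resolved.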
